A study of Mus musculus with 6 samples.

Results

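The genes described here are the nuclear-coded subunits of the mitochondrial respiratory chain and ATP synthase. They were chosen by symbol: names that start with Ndufa, Ndufb, Ndufc, Ndufs, Ndufv, Uqcr, Cox4 to Cox8 or Atp5, together with Sdha, Sdhb, Sdhc, Sdhd, Cyc1 and Cycs. Of 18193 genes with a probe set that carries 1 symbol, 92 met this rule, and 89 of them passed a filter on dim signals that left 11620 genes for testing. They comprise 34 genes of complex I, 8 complex I assembly factors whose symbols share the Ndufa prefix, 4 of complex II, 9 of complex III, 19 of complex IV, 17 of complex V and cytochrome c. Ndufa4 and Ndufa4l2 were placed in complex IV, where NDUFA4 is now assigned. Ndufs6, Ndufa11 and Cox7b are not analysed here.

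RNA came from proximal tubules that were dissected from Clcn5 knockout mice and from wild type mice and measured on Affymetrix mouse arrays. Knockout pools filled 3 arrays and wild type pools another 3. Each pool combined 80 to 100 tubule pieces of 2 mm per kidney from 3 to 4 mice per the labels, or from 7 mice per the records stored with the arrays. Arrays of the same genotype are described in these records as biological replicates, so p-values measure the spread between pools. Strain, age, sex and the deleted stretch of Clcn5 are not given in the sources used here.

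Proximal tubule cells reabsorb most of the glomerular filtrate and are packed with mitochondria, because sodium pumping in this segment depends on oxidative phosphorylation. Complex I and complex II pass electrons from NADH and succinate to ubiquinone, complex III passes them to cytochrome c, and complex IV passes them to oxygen. Complexes I, III and IV pump protons, and complex V, the ATP synthase, uses the proton gradient to make ATP. Each complex except complex II also holds subunits coded by mitochondrial DNA.

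Clcn5, which encodes the endosomal chloride/proton exchanger ClC-5, was lower on all 3 knockout arrays with each of its 4 probe sets, by 2.83-fold to 7.31-fold. Array medians were 40.9 to 48.8 signal units, the highest on knockout array 3. That array was washed and stained on fluidics station 2, with another solution lot, and wild type array 2 was on station 2 as well. The other 4 arrays were on station 1. Knockout and wild type arrays correlated at 0.967 to 0.977 across genes, against 0.978 to 0.986 within a group. Sums of marker signals showed which other cells were in the dissected tissue, and several did not overlap between the groups. The 5 thick ascending limb markers summed to 11627 to 12825 signal units in knockout and 9865 to 10582 in wild type, with 2 of 5 higher by the test. One of these, Umod, averaged 5155 ± 269 in knockout and 3875 ± 217 in wild type. The median log2 change of this list, knockout minus wild type, was 0.15. The 4 measured distal convoluted and connecting tubule markers summed to 8476 to 8980 in knockout and 6881 to 7919 in wild type, with 3 of 4 higher. The 5 markers of the S3 segment of the proximal tubule summed to 7041 to 7402 in knockout and 6222 to 6498 in wild type, with 1 of 5 higher. That gene, Slc7a13, averaged 4777 ± 166 in knockout and 3692 ± 57.8 in wild type. Another S3 marker had all its knockout arrays below its wild type arrays. The median log2 change of the S3 list, knockout minus wild type, was 0.05. The 6 leukocyte markers summed to 775 to 811 in knockout and 563 to 618 in wild type, with 1 of 6 higher. Of the podocyte markers, 4 were measured and 2 were higher, with sums of 1070 to 1362 in knockout and 856 to 904 in wild type. The 5 S1 and S2 proximal markers overlapped, at 17255 to 18987 in knockout and 17025 to 19268 in wild type, and 1 of 5 was lower. The 7 collecting duct markers overlapped, at 3547 to 3754 in knockout and 3664 to 4178 in wild type, with 1 higher and 2 lower, and of 5 endothelial markers 0 were called by limma, with 0 at an unadjusted p under 0.05. No marker was at a signal of 0. The part of these cell types in the values that follow was not tested, and in dissected tissue fewer cells of a type and less RNA per cell cannot be told apart.

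The respiratory chain and ATP synthase genes differed little between the knockout and wild type tubules. By limma with Benjamini-Hochberg adjustment over all 11620 genes at 0.05, 1 of the 89 genes was lower in knockout and 0 were higher, where 6.48% of all genes tested were called, 3.24% in each direction. With the fluidics station as a block, the genes lower in knockout were 3, Cox6b2, Ndufa12 and Ndufs5. An unadjusted p under 0.05 was reached by 4 of the 89, where 19.4% of all genes tested reached it. The median log2 change, knockout minus wild type, was 0.03 over the 89 genes and 0.01 over all genes tested. The interquartile range ran from −0.01 to 0.08 for these genes and from −0.12 to 0.13 for all genes. A log2 change above 0 was seen for 59 of the 89 (66.3%), against 51.7% of all genes. The mean log2 change of the 89 genes, which include Cox6b2 at −1.0, depended on the scaling. It was 0.017 as deposited and −0.013 after quantile normalization between arrays. The median of the 89 genes stayed between −0.01 and 0.08 over 18 other settings, quantile normalization among them. The share above 0 was not counted after quantile normalization. With quantile normalization the mean was −0.017 for complex I, −0.011 for complex III, −0.029 for complex IV and −0.024 for complex V, each of which was above 0 as deposited, and it stayed above 0 for complex II, at 0.026, and for the assembly factors, at 0.042.

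The intervals that follow cover the spread between arrays of the 1 probe set that represents each gene, and other probe sets of the same gene can lie outside them. The 95% interval of the change lay within 1.5-fold in either direction for 86 of the 89 genes (96.6%), against 72.6% of all genes tested. It lay within 1.25-fold for 74 (83.1%), against 32.9% of all genes. The standard error of the change had a median of 0.08 for these genes and 0.12 for all genes. Most of the genes gave bright signals, with 72 of 89 above a mean of 1000, and the median SD between arrays of a group was 6.04% of the mean.

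**Figure D1:**
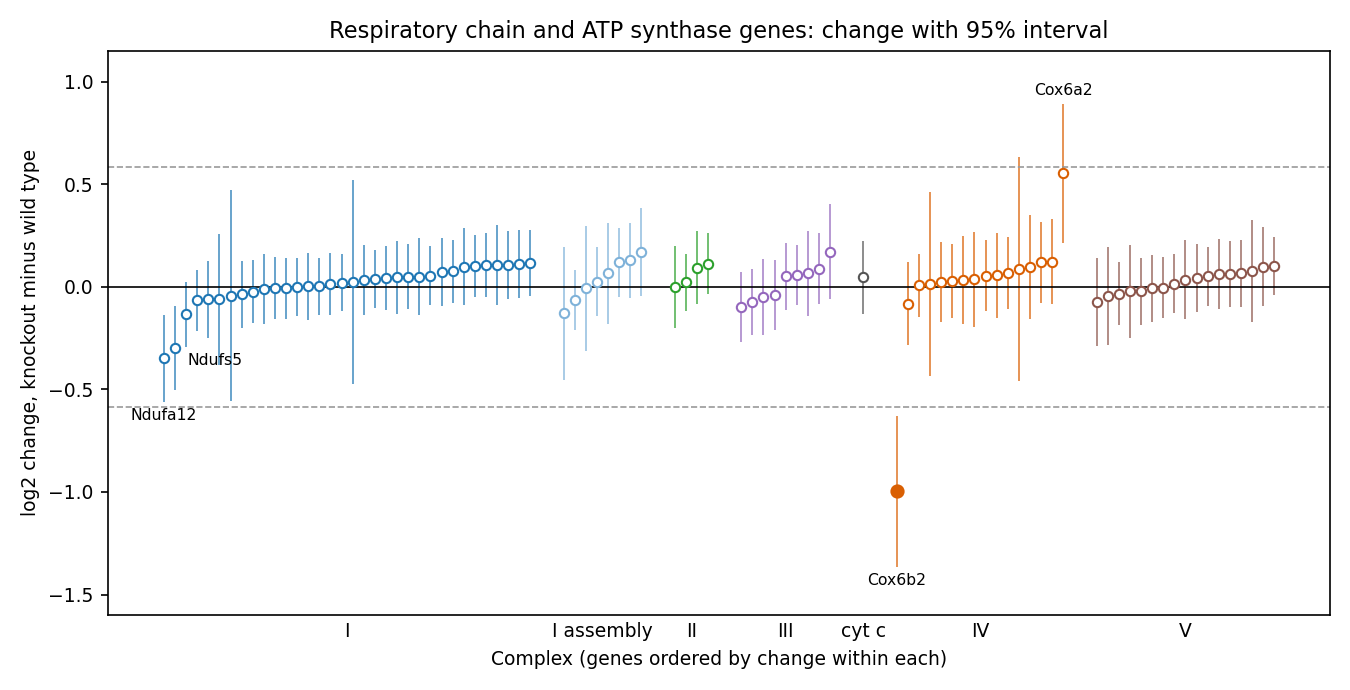
Log2 change (knockout minus wild type) of the 89 tested genes, grouped by complex and ordered by change, with 95% intervals from the limma fit on 3 knockout and 3 wild type arrays. The filled point is the 1 gene past the adjusted threshold, Cox6b2, dashed lines mark 1.5-fold, and the 4 labelled genes had an unadjusted p under 0.05.

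The 5 complexes had similar medians. The median log2 change was 0.02 for complex I, 0.06 for complex II, 0.05 for complex III, 0.05 for complex IV and 0.03 for complex V. The complex I assembly factors had a median of 0.05, and cytochrome c a log2 change of 0.05. No error of these medians was estimated, and no test was made between complexes. Complex IV had the widest range, from −1.0 for Cox6b2 to 0.55 for Cox6a2, and complex V one of the narrowest, from −0.07 for Atp5g1 to 0.10 for Atp5g2.

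Few genes had groups whose arrays did not overlap. The 3 knockout arrays all lay above the 3 wild type arrays for 2 of the 89 genes, Cox6a2 and Sdha, where 13.6% of all genes tested did so. They all lay below for 4, Cox6b2, Ndufa12, Ndufs5 and Cox7a1, where the share was 11.6% of all genes. In either direction, 25.2% of all genes tested were separated in this way.

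**Figure D2:**
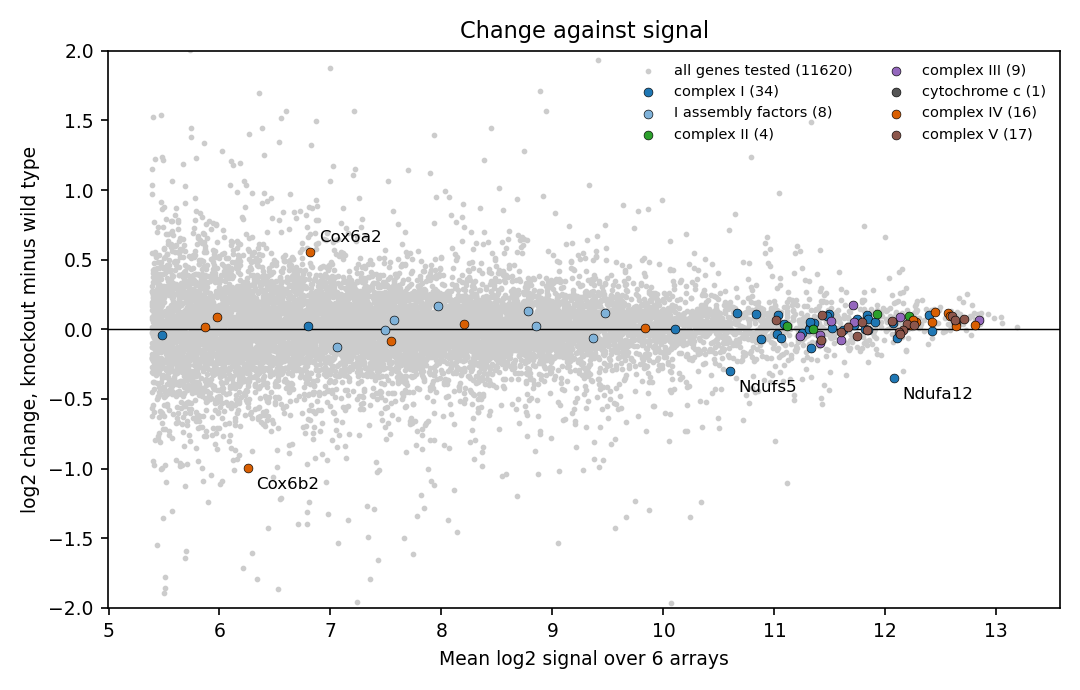
Log2 change (knockout minus wild type) against mean log2 signal for all 11620 genes tested (grey) and for the 89 respiratory chain and ATP synthase genes (coloured by complex). The coloured points lie near 0 at the bright end, except Ndufa12 and Ndufs5, and the 2 genes furthest from 0, Cox6b2 and Cox6a2, are dim, while 11 genes beyond a log2 change of 2 in size fall outside the axis.

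On the brightest probe set of each gene, only Cox6b2 was called lower. Cox6b2 encodes the testis form of the complex IV subunit 6b. Its probe set, 1435275_at, gave signals of 58.0, 56.0 and 48.8 on the knockout arrays and 111, 95.3 and 119 on the wild type arrays. The highest knockout array was below the lowest wild type array by more than the range within either group. The means were 54.3 ± 4.80 in knockout and 108 ± 12.1 in wild type (SD, n = 3 each), which is 2.00-fold lower in knockout (log2 change −1.0, SE 0.17, 95% interval −1.36 to −0.63, limma adjusted p = 0.00398). The log2 change was −1.01 between the arrays of station 1 and −0.96 between the 2 arrays of station 2. The gene had a single probe set, and its signal was near the filter of 41.9 units on the knockout arrays, so the fold change of this dim probe set is less certain than those of bright ones. The partner gene Cox6b1, which encodes the general form of the subunit, averaged 6408 ± 399 in knockout and 6318 ± 641 in wild type (log2 change 0.02).

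The promoter of Cox6b2 is shown because it belongs to the gene that passed the test. It is given from RefSeq on GRCm38.p6, from 250 bases before the annotated start to 50 after it, with the base at the start in capitals.
Cox6b2, chr7:4753045-4753344, minus strand: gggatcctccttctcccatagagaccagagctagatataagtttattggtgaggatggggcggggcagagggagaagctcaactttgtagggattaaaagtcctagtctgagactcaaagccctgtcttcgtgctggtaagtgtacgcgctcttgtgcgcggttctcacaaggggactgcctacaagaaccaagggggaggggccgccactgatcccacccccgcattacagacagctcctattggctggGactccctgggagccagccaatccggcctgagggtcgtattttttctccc

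Of the other muscle or testis forms of complex IV subunits, those that passed the filter had no call. Cox6a2, which encodes the heart and skeletal muscle form of subunit 6a, gave 137, 134 and 140.0 on the knockout arrays and 93.9, 112 and 76.8 on the wild type arrays. All 3 knockout arrays were above all 3 wild type arrays, and the knockout arrays were close together (137 ± 3.17 against 94.3 ± 17.8, SD, n = 3 each). The log2 change was 0.55 (SE 0.15) and missed the threshold, with a limma adjusted p of 0.0615. The general form, Cox6a1, averaged 6310 ± 390 in knockout and 5826 ± 603 in wild type (log2 change 0.12).

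Cox7a1, which encodes the muscle form of subunit 7a, had signals of 176, 189 and 178 on the knockout arrays and 189, 196 and 190.0 on the wild type arrays. The highest knockout and lowest wild type array were nearly equal, and the log2 change was −0.08 (SE 0.09, limma adjusted p = 0.699). Its partner Cox7a2, the liver and general form, averaged 7248 ± 457 in knockout and 7112 ± 502 in wild type (log2 change 0.03). Of 3 fat and muscle markers tested, 0 were called by limma. Acta2, smooth muscle actin, was the 1 with an unadjusted p under 0.05, at 595, 596 and 564.2 on the knockout arrays and 531, 536 and 483 on the wild type arrays (log2 change 0.18, limma adjusted p = 0.173). Of the 3, the knockout arrays of 1 lay all above and those of another all below the wild type arrays, while the list summed to 1194 to 1198 in knockout and 1079 to 1246 in wild type. The part of such cells in the Cox6a2 and Cox7a1 values was not tested.

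Cox4i2, the lung form of subunit 4, did not pass the filter and gave 33.8, 20.8 and 47.5 on the knockout arrays and 34.6, 46.9 and 48.5 on the wild type arrays, which overlap. Cox7b2 and Cox8b did not pass it either, with means of 7.43 in knockout and 9.57 in wild type for Cox7b2 and of 5.58 in knockout and 7.13 in wild type for Cox8b. The general forms Cox4i1 and Cox8a had log2 changes of 0.05 and 0.06. Cox8c averaged 300 in knockout and 291 in wild type (log2 change 0.04), and its other kept probe set gave −0.29 with overlapping groups. Ndufa4 had a log2 change of 0.07, and its paralog Ndufa4l2, a hypoxia-induced gene, of 0.09 with a wide interval of −0.46 to 0.63. Cox5a and Cox5b had changes of 0.03 and 0.12, and their knockout and wild type arrays overlapped. Other kept probe sets of Cox5a, 1415933_a_at and 1439267_x_at, gave −0.10 and −0.16, and those of Cox5b gave −0.08 to 0.09. Cox7c was tested through a dim probe set, at 59.5 in knockout and 58.1 in wild type.

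In complex I, Ndufa12 and Ndufs5 were the genes furthest below 0. Ndufa12 encodes an accessory subunit of the matrix arm, and Ndufs5 an accessory subunit on the intermembrane side. Ndufa12 (probe set 1455806_x_at) gave 3789, 4279 and 3437 on the knockout arrays and 4884, 4416 and 5337 on the wild type arrays. All 3 knockout arrays were below all 3 wild type arrays, with means of 3835 ± 423 in knockout and 4879 ± 460.5 in wild type (SD, n = 3 each). The log2 change of −0.35 (SE 0.10) missed the threshold, with a limma adjusted p of 0.0608, and passed it with the station as a block (limma adjusted p = 0.0190).

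The probe sets of Ndufa12 did not give the same result. The probe set behind these values can match several transcripts by its name, and another of that kind, 1433513_x_at, gave a log2 change of −0.29, with signals of 3293, 3187 and 2676 on the knockout arrays and 3771, 3475 and 3910 on the wild type arrays. Probe set 1418814_s_at, also shared among transcripts, gave 2695, 2706 and 2470 on the knockout arrays and 2518, 2640 and 2611 on the wild type arrays, a log2 change of 0.02. The last one, 1425919_at, was dim and did not pass the filter. Its signals were 33.6, 29.6 and 33.3 on the knockout arrays and 22.9, 24.2 and 20.9 on the wild type arrays. The log2 change was 0.51 (SE 0.28), opposite in sign to that of the brightest probe set, and the groups did not overlap.

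Ndufs5 (probe set 1416494_at) gave 1586, 1445 and 1203 on the knockout arrays and 1726, 1661 and 1787 on the wild type arrays. The lowest knockout array was the one on station 2, and the groups did not overlap. The log2 change was −0.30 (SE 0.09, limma adjusted p = 0.0967), and the adjusted p was 0.0443 in limma with the station as a block. It was −0.21 between the arrays of station 1 and −0.47 between the 2 arrays of station 2. A probe set named for both Ndufs5 and its pseudogene gave 856, 649 and 759 on the knockout arrays and 891, 957 and 1064 on the wild type arrays, a log2 change of −0.37.

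On their brightest probe sets, the remaining 32 complex I genes lay between −0.13 for Ndufa10 and 0.12 for Ndufs1. Ndufa10 encodes an accessory subunit (limma adjusted p = 0.341). Ndufs1 encodes the largest core subunit, which carries iron-sulphur clusters (limma adjusted p = 0.430). Other kept probe sets of these 32 genes with a single symbol gave −0.19 to 0.38, with a dim one of Ndufa10 at 0.20. For Ndufb7, 1448331_at gave 1619, 1521 and 1499 on the knockout arrays and 1417, 1295 and 1400 on the wild type arrays. Its log2 change was 0.17, and the groups did not overlap. Ndufv1, which encodes the subunit that binds NADH, averaged 2939 ± 153 in knockout and 2756 ± 300 in wild type (log2 change 0.10). Ndufab1, the mitochondrial acyl carrier protein, had a change of 0.05, and of −0.11 on its other kept probe set with a single symbol. Within complex I the 95% interval lay inside 1.25-fold for 29 of 34 genes. Ndufb4 was tested only through a dim probe set at 44.1 in knockout and 45.9 in wild type. Bright probe sets that carry several symbols, Ndufb4 among them, were outside the test. Of these, 1428075_at gave a log2 change of −0.02 and 1428076_s_at of −0.07. Ndufs8, a core subunit with iron-sulphur clusters, had a change of −0.06 on its brightest probe set, where knockout array 3 was low at 3315, while its 5 other kept probe sets gave 0.04 to 0.12.

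**Figure D3:**
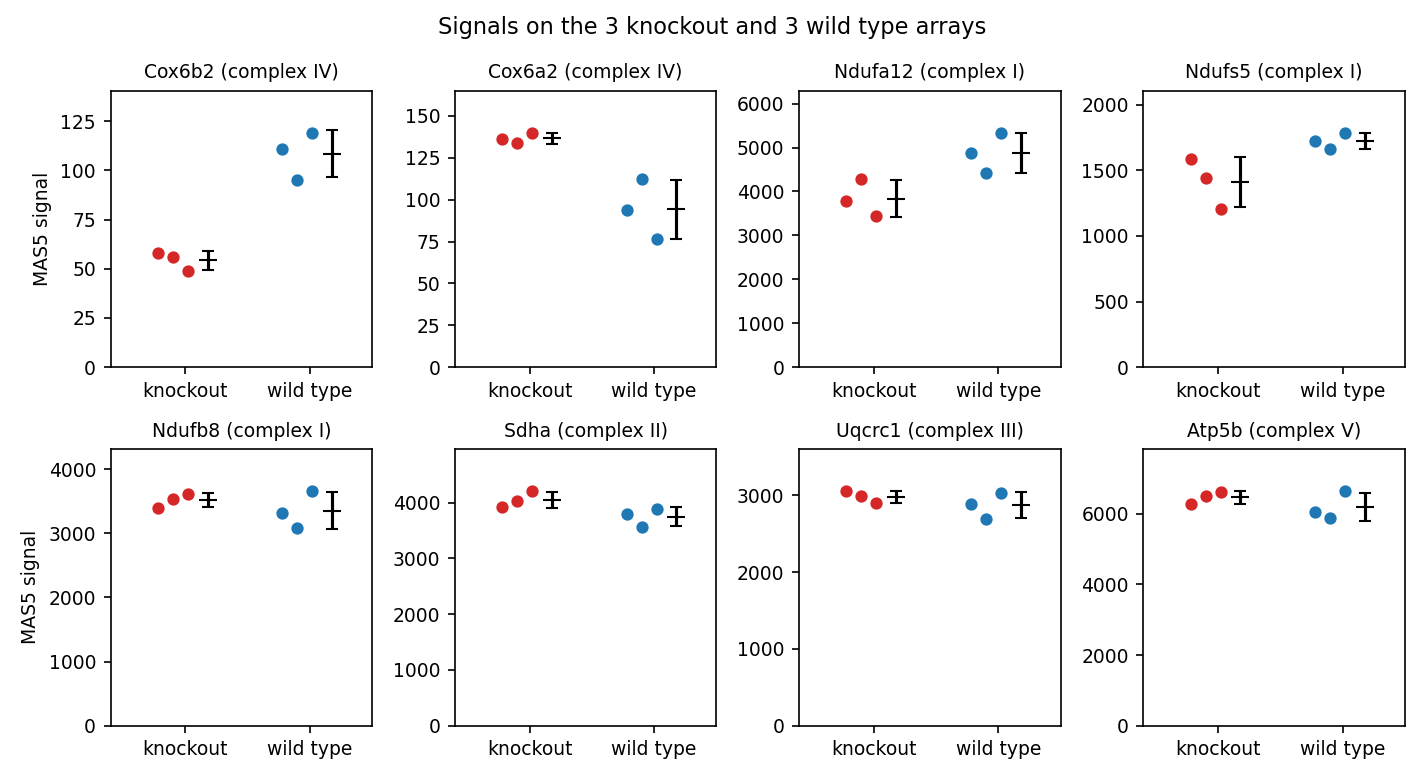
Deposited MAS5 signals of 8 genes on the 3 knockout arrays (red) and the 3 wild type arrays (blue), each axis from 0, with the mean and SD (n = 3) beside them in black. The upper row holds the 4 genes with an unadjusted p under 0.05, whose groups do not overlap, and the lower row shows 1 subunit each of complexes I, II, III and V.

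The 8 assembly factors of complex I, which build the enzyme but are not part of it, ranged from −0.13 for Ndufaf5 to 0.17 for Ndufaf7. Ndufaf7, a methyltransferase that acts on complex I, gave 238, 266 and 298 on the knockout arrays and 231, 233 and 246 on the wild type arrays, and the groups overlapped. None passed the threshold, with Ndufaf8 at 0.12 (limma adjusted p = 0.441) and Ndufaf3 at 0.13 (limma adjusted p = 0.451). Another kept probe set of Ndufaf8, 1448003_at, gave 200, 185 and 203 on the knockout arrays and 151, 146 and 173 on the wild type arrays. Its log2 change was 0.33 (SE 0.10), and the groups did not overlap. For Ndufaf4, 1435333_at gave −0.22, against −0.07 on the brightest probe set.

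In complex II, which is also the succinate dehydrogenase of the citrate cycle, Sdha was the highest and Sdhd the lowest, and neither passed the threshold. Sdha, the flavoprotein subunit, gave 3917, 4027 and 4203 on the knockout arrays and 3796, 3554 and 3883 on the wild type arrays. The groups were separate but close, with a log2 change of 0.11 (SE 0.07, limma adjusted p = 0.401). Sdhb, the iron-sulphur subunit, had a change of 0.09, and the membrane anchors Sdhc and Sdhd changes of 0.02 and −0.00. Other kept probe sets of both anchors read differently. For Sdhc, 1435986_x_at gave 2075, 1161 and 2050.3 on the knockout arrays and 1184, 1090 and 1238 on the wild type arrays, a log2 change of 0.54 with knockout array 2 inside the wild type range. For Sdhd, 1437489_x_at gave 409, 424 and 260.1 on the knockout arrays and 385, 531 and 411 on the wild type arrays, a log2 change of −0.30, and the groups overlapped.

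In complex III, Uqcrh, the hinge subunit, was the highest, with 3802, 3520 and 3371 on the knockout arrays and 3561, 2652 and 3345 on the wild type arrays. The wild type array of station 2 was the low one, and the change was 0.17 (SE 0.10, limma adjusted p = 0.420) on this probe set and −0.01 on the other. Uqcrq was the lowest at −0.10 (limma adjusted p = 0.556). Uqcrfs1, the Rieske iron-sulphur protein, had a change of 0.05, Cyc1, the cytochrome c1 gene, of 0.09, and the core proteins Uqcrc1 and Uqcrc2 of 0.06 and −0.07. Uqcr10, a small subunit, had a change of −0.05 on its brightest probe set, −0.16 on another, and −0.34 on 1434340_at. On the last (SE 0.06), the signals were 848, 838 and 917 on the knockout arrays and 1118, 1056 and 1129 on the wild type arrays. The groups did not overlap, and this probe set was outside the adjusted test, which took the brightest of each gene. Cytochrome c itself, Cycs, averaged 6498 ± 488 in knockout and 6289 ± 360 in wild type (log2 change 0.05).

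In complex V, all 17 genes were within 1.25-fold on their brightest probe set, and 16 of the 95% intervals lay inside 1.25-fold as well. Among the other kept probe sets, 1443495_at of Atp5j2 gave −0.48 and 1437164_x_at of Atp5o gave −0.22, with overlapping groups. The rest gave −0.08 to 0.09. The catalytic core genes Atp5a1 and Atp5b, which encode the alpha and beta subunits, had changes of 0.10 and 0.07. Atp5b gave 6262, 6513 and 6628 on the knockout arrays and 6058, 5873 and 6637 on the wild type arrays, which overlap. The genes for the c subunit of the rotor, Atp5g1, Atp5g2 and Atp5g3, encode the same mature protein and had changes of −0.07, 0.10 and 0.08.

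The genes moved together from array to array. Each gene's log2 signal was set against its own mean over the 6 arrays, and the deviations were averaged over the 89 genes. The average was −0.02, 0.03 and 0.02 on knockout arrays 1 to 3 and −0.01, −0.09 and 0.07 on wild type arrays 1 to 3. The range was thus 0.05 over the knockout arrays and 0.16 over the wild type arrays, while the groups differed by 0.02. A range over single arrays and a difference between group means are unlike measures, so their sizes are not compared. Wild type array 2 was the lowest wild type array for 72 of the 89 genes, and wild type array 3 the highest for 75. Of all 11620 genes tested, wild type array 2 was the lowest for 4129 and wild type array 3 the highest for 4276. The wild type range was 0.17 for complex I, 0.19 for complex II, 0.23 for complex III, 0.10 for complex IV and 0.19 for complex V, against 0.01 for all genes tested. After quantile normalization between arrays the wild type range of the 89 genes was 0.04, and wild type array 2 was the lowest for 50 of them. It was then the lowest for 4182 of all 11620 genes tested.

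The 45 cytosolic ribosomal protein genes tested, which also give bright signals, had a wild type range of 0.09 as deposited and 0.03 after quantile normalization. As deposited, wild type array 2 was the lowest for 28 of the 45, and wild type array 3 the highest for 31. The median change of the 89 genes was −0.01 between the arrays of station 1 and 0.13 between the 2 arrays of station 2, where all genes had 0.00 and 0.03. The difference on station 2 compares 1 knockout array with wild type array 2, and has no replicate check. By complex, the medians on station 1 and station 2 were 0.00 and 0.11 for complex I, 0.03 and 0.21 for complex II, −0.06 and 0.13 for complex III, −0.04 and 0.22 for complex IV, and −0.02 and 0.11 for complex V. All 5 medians were higher on station 2.

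**Figure D4:**
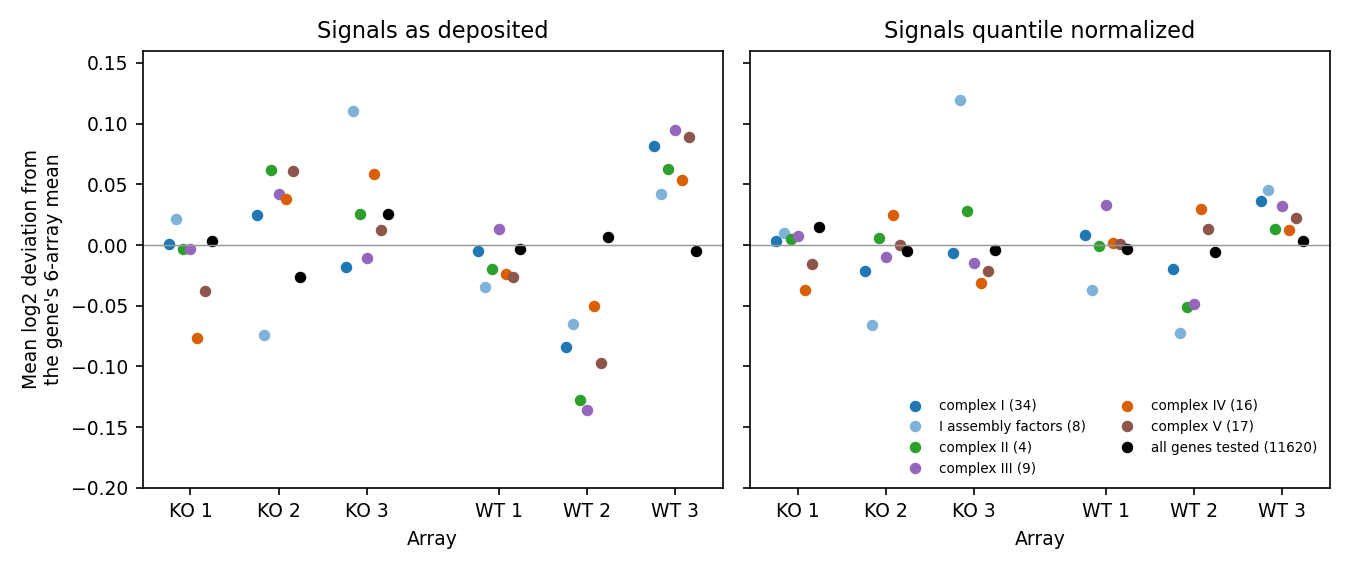
Mean log2 deviation of the genes of each complex from their own 6-array mean, on the 3 knockout arrays (left) and 3 wild type arrays (right), for signals as deposited and after quantile normalization, with all 11620 genes in black. As deposited, wild type array 2 is the lowest and array 3 the highest wild type array in every complex shown, and the wild type spread is smaller after quantile normalization except for the assembly factors.

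Other probe sets gave a mixed picture of direction. The 92 genes had 184 probe sets with a single symbol, and 48 of the 89 tested genes had another kept probe set. All other kept probe sets shared the sign of the representing one in 22 of the 48, and 44 of the 75 other probe sets did so. Of the 75, 19 had a log2 change outside the 95% interval of the representing probe set. The names of 18 of the 92 representing probe sets mark them as able to match several transcripts or as sharing probes.

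Short motifs of factors known for mitochondrial genes were counted in the promoters. RefSeq entries were found for 75 of the 92 genes, with 80 promoters of 300 bases on GRCm38.p6, and motifs were searched on both strands. NRF1 is a factor known for binding genes of oxidative phosphorylation, and its site CGCATGCGC was in 12.5% of these promoters (10 of 80), against 1.75% of all 32851 promoters. The shorter GCATGCGC, which is contained in it, was in 15%, against 2.71%. The YY1 site AAGATGGC was in 12.5% (10 of 80), against 2.75%. The ETS site CCGGAAGT of GABPA, also called NRF2 in this field, was in 6.25% (5 of 80), against 3.89%, and the site TCAAGGTCA of the estrogen-related receptors in 2.5% (2 of 80), against 0.423%. The genes with the longer NRF1 site had log2 changes of −0.13 to 0.12, and those with the YY1 site −0.03 to 0.12. Those with the ETS site ranged from −0.04 to 0.17, and those with the receptor site from −0.00 to 0.08. None of these letters was found in the promoters of Cox6b2, Ndufa12 or Ndufs5. A match is a description of the sequence and not a site shown to be bound in these cells.

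The windows that follow show one or more examples of each motif, in capitals, in 60 bases of the promoter in the direction of the gene on GRCm38.p6. Cycs and Cox6a1 hold the NRF1 site, Atp5pb and Ndufs7 the YY1 site, Cox8a the ETS site and Sdhd the receptor site. In Atp5pb, Cox8a and Sdhd the motif reads on the opposite strand.
Cycs, chr6:50566596-50566655, minus strand: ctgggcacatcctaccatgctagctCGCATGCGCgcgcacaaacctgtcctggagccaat
Cox6a1, chr5:115349085-115349144, minus strand: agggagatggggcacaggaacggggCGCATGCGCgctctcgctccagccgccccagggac
Atp5pb, chr3:105959232-105959291, minus strand: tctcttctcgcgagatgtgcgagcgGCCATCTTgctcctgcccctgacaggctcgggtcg
Ndufs7, chr10:80249439-80249498, plus strand: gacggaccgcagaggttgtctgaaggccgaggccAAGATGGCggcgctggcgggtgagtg
Cox8a, chr19:7217588-7217647, minus strand: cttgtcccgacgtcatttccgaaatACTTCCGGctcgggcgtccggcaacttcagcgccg
Sdhd, chr9:50603800-50603859, minus strand: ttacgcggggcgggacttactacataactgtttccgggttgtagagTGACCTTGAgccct

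Genes that serve the same machinery were compared by their counts. Of 38 tested assembly factors outside the rule, 3 were higher and 1 was lower in knockout, with a median log2 change of 0.05. These 4 are 10.5% of the list, where 6.48% of all genes tested were called, and 8 of the 38 (21.1%) had an unadjusted p under 0.05, where 19.4% of all genes did. Acad9, an acyl-CoA dehydrogenase that also assembles complex I, fell, with 200, 164 and 240 on the knockout arrays and 298, 298 and 307 on the wild type arrays (log2 change −0.60, SE 0.13, limma adjusted p = 0.0153). Cox18, which inserts the tail of mitochondrially coded COX2 into the membrane, rose, with 359, 342 and 339 on the knockout arrays and 273, 263 and 279 on the wild type arrays (log2 change 0.35, SE 0.07, limma adjusted p = 0.0161). Uqcc2, an assembly factor of complex III, rose by 0.23 on the log2 scale (658 ± 16.0 in knockout and 559 ± 8.17 in wild type, SD, n = 3 each, limma adjusted p = 0.0463). The groups of these 3 genes did not overlap.

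Of 17 regulators of mitochondrial biogenesis, 0 were called by limma and 1 had an unadjusted p under 0.05, Ppara, the nuclear receptor for fatty acids, which was at 648 ± 153 in knockout and 920 ± 49.6 in wild type (log2 change −0.53, limma adjusted p = 0.0573). Of 17 citrate cycle genes, 0 were called and 2 had an unadjusted p under 0.05, with a median log2 change of 0.01, and Dlat of the pyruvate dehydrogenase complex had a change of −0.27 (limma adjusted p = 0.0609). Among 76 mitochondrial ribosomal protein genes, 2 rose and 2 fell, or 5.26%, near the share of all genes. Mrps30 rose by 0.44 on the log2 scale (limma adjusted p = 0.00681) and Mrps12 by 0.36 (limma adjusted p = 0.0117), while Mrpl52 fell by 0.31 (limma adjusted p = 0.0192). Of 45 cytosolic ribosomal protein genes, 1 fell, Rps6, by 0.54 on the log2 scale (limma adjusted p = 0.0123). Of 26 import genes, 0 were called and 8 (30.8%) had an unadjusted p under 0.05, with a median log2 change of −0.02, and Timm29 had a change of 0.45 (limma adjusted p = 0.0827). Of 9 antioxidant or uncoupling genes, 0 were called and 0 had an unadjusted p under 0.05, and Txn2, the mitochondrial thioredoxin, had a change of 0.21 (limma adjusted p = 0.361). ND5, the mitochondrially coded subunit measured here, averaged 7643 ± 1020 in knockout and 7069 ± 828 in wild type (log2 change 0.11, limma adjusted p = 0.665).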

How the data were processed

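Transcript levels were measured on 6 arrays of pooled proximal tubule RNA, 3 knockout and 3 wild type. The authors deposited signal intensities on a linear scale, for which the submitters' processing notes name MAS5 and GCOS 1.4, with RNA amplified from an oligo dT primer per the labels. Each array had a trimmed mean of 150 with 2% trimmed at each end. No detection calls were used, and the genome build is not given in the sources used here.

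Of 45101 probe sets, 64 are controls. Of the others, the platform table gives no symbol to 9160, several to 932 and 1 to 34945, and only the last kind was used to name genes. All 92 genes matched RefSeq identifiers. The log2 of each signal was taken with no pseudocount added. Probe sets with a mean log2 signal at or above the median of those that are not controls (a signal of 41.9) were kept, and each gene was represented by its brightest. Knockout was compared with wild type in limma 3.58.1 under R 4.3.3 (lmFit, eBayes with trend, two-sided, 4 residual degrees of freedom, Benjamini-Hochberg adjustment at 0.05). Means and SDs are of linear signals. The number of arrays limits the precision. Plots used matplotlib 3.10.9, and tables were made with pandas 2.3.3 and numpy 2.4.6 under Python 3.11.15.

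The genes, lists and tests were chosen with earlier results of these data known, so no test was made over a list. Named are the genes with the smallest p (12 in all), the highest and lowest of each complex, tissue isoform pairs, and up to 3 called genes of each other list, or else the one with the smallest p. Other genes, named for their role in a complex, were chosen after their values were seen. Arrays with the same number did not deviate together (r of −0.03 to 0.03), so numbers were not taken to pair arrays. Alternatives changed the scale, normalization, filter, probe set choice, variance model, array weights, station, block, threshold and the complex of Ndufa4, or left out an array.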

Additional observations from a re-analysis of the deposited data

How the results depend on the processing

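Over 18 other settings, Cox6b2 stayed lower and past the threshold, with log2 changes of −1.09 to −0.60 and limma adjusted p up to 0.0318. The count of higher genes of the respiratory chain and ATP synthase was 0 and became 1 (Cox6a2) with quantile normalization, with the mean of all kept probe sets and at an adjusted p of 0.10, and was 0 to 1 when 1 array was left out. The count of lower genes was 1 and became 3 (Cox6b2, Ndufa12 and Ndufs5) with quantile normalization, with the station as a block and at 0.10, and was 1 to 2 when 1 array was left out. Ndufa12 had an adjusted p of 0.00137 to 0.362 over the settings, Cox6a2 of 0.0374 to 0.181 and Ndufs5 of 0.0301 to 0.480. Without wild type array 2, Ndufa12 (−0.42) and Cox6a2 (0.69) passed, without knockout array 2 Ndufa12 (−0.43), and without knockout array 1 Ndufs5 (−0.39). The median of the 89 genes stayed between −0.01 and 0.08. That of complex III was −0.063 within station 1, against 0.05. Of all genes tested, 377 were higher and 376 lower. Those counts were 199 and 198 with median centring, 217 and 241 within station 1, and 245 to 343 and 250 to 395 when 1 array was left out. Without the intensity trend 236 were higher. With the array number as a replicate block, which the numbers do not support as a pairing, 1 of the 89 genes was lower, and 368 of all genes were higher and 397 lower. Station 2 holds 1 array of each group, so no test was possible within it. Of 449 values of named genes, 31 differed in sign, none of them past the threshold. The causes of these shifts were not tested.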
